A study of Homo sapiens with 8 samples.

Results

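Genes of glycolysis and targets of the hypoxia response were followed across a differentiation step and an ethanol exposure of human embryonic stem cells. Of 37 genes chosen by name, 34 had at least 1 probe set that names them alone, 24 of glycolysis and 10 of the hypoxia response, among 19775 genes with such a probe set. The lactate transporters SLC16A1 and SLC16A3 and the carbonic anhydrase CA9 were not analysed here. A probe set is a group of array probes read as 1 value, and each gene was read from its brightest probe set by mean signal.

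RNA was measured on 8 Affymetrix arrays in 4 groups of 2: embryoid bodies with 20 mM ethanol, embryoid bodies with 0 mM, undifferentiated cells with 20 mM and undifferentiated cells with 0 mM. Exposure lasted 24 h. The labels name the cells of all groups as H9, an established human embryonic stem cell line, and give mTeSR, a feeder-free stem cell medium, for their growth. Embryoid bodies are aggregates in which pluripotent cells differentiate; their age, and whether the duplicates came from separate cultures, are not stated in the labels, so p-values measure only the spread between these arrays.

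Glycolysis splits glucose into pyruvate, and lactate dehydrogenase turns pyruvate into lactate. Most steps have several isoenzymes, encoded by separate genes with different tissue ranges and kinetics, and pluripotent stem cells are known for a high glycolytic rate. When oxygen is low, hypoxia-inducible factors are no longer marked for destruction by prolyl hydroxylases. They bind elements that often contain ACGTG, and raise many glycolysis genes together with genes of vessel growth, mitophagy and collagen modification. Oxygen was not among the variables named in the labels.

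Signals are given on the linear array scale, in which every array had a trimmed mean of 500 to 500.1. The array medians were 102 on both 20 mM embryoid body arrays, 83.2 to 85.1 on those at 0 mM, and 69.2 to 79.4 on undifferentiated arrays. By transcripts known to differ among cell lines, 4 of 8 arrays did not match the named line, all of 1 stage, so stage and line cannot be told apart in any comparison of stages below. The 9 pluripotency markers lay above the array median on every array, with summed signals of 81100 to 84900 at 20 mM and 93400 to 95700 at 0 mM in embryoid bodies, against 122000 to 128000 and 119000 to 124000 in undifferentiated cells. Endoderm markers summed to 49300 to 50500 and 39900 to 40400 in embryoid bodies, against 856 to 1230 and 895 to 1010, and mesoderm markers to 40200 to 40600 and 21800 to 22500, against 757 to 834 and 687 to 797. Of 7 endothelial markers, 3 were bright enough to be tested, and the summed signals were 2470 to 2510 and 1850 to 2050 in embryoid bodies, against 2550 to 3050 and 2750 to 3140. In these bulk samples fewer cells of a type and less RNA per cell cannot be told apart, and the part of cell makeup in the results below was not tested.

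Most enzymes of glycolysis were lower in embryoid bodies than in undifferentiated cells, whereas the glucose transporters were higher. Hypoxia targets went in both directions, at shares near those of all tested genes. HKDC1 passed the filter on dim genes only through the 20 mM embryoid body arrays, so its values are given as a description with no test, and it is left out of the counts; the other 33 genes lay above the array median on all 8 arrays. At 0 mM, 18 of the 33 fell and 5 rose (limma, Benjamini-Hochberg adjusted p under 0.05 over 14079 genes), or 54.5% and 15.2%, where 24.7% of all tested genes fell and 28% rose. At 20 mM, 20 fell and 4 rose, or 60.6% and 12.1%, where 27.1% of all tested genes fell and 29.2% rose. The median log2 change was -0.50 at 0 mM and -0.48 at 20 mM, beside 0.02 over all tested genes in both comparisons.

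At both doses 17 of the 33 fell and 4 rose, beside 20.2% and 23.9% of all tested genes. PFKL fell and NDRG1 rose at 0 mM alone by this threshold, and PFKM, ENO1 and LDHB fell at 20 mM alone. No change passed at either dose for GAPDH, PFKFB3, PFKFB4, ADM, EGLN1, EGLN3 and P4HA1. The comparisons at 0 and 20 mM use different arrays and share 1 estimate of spread. Lack of overlap between stages was common among all 14079 tested genes. At 0 mM, 5670 were higher and 5363 lower on both embryoid body arrays than on both undifferentiated arrays. At 20 mM the counts were 5576 and 5288. Where lack of overlap is given below, it describes single genes and is no trait particular to them.

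Bright genes were lower more often in embryoid bodies throughout the arrays, and 19 of the members belong to the brightest genes. In the brightest 10% of tested genes 45.8% fell at 0 mM and 55.9% at 20 mM, and 6 and 8 of the 10 members there did. In the next 10% 40.1% and 47.1% of genes fell, and 6 and 7 of the 9 members did. When arrays were centred on their medians, the median change of all genes became -0.25 at 0 mM and -0.40 at 20 mM, with 18.2% of genes higher and 40% lower at 0 mM. Of the 33 genes, 2 were then higher and 22 lower at 0 mM, beside 5 and 18 on the deposited scale.

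**Figure D1:**
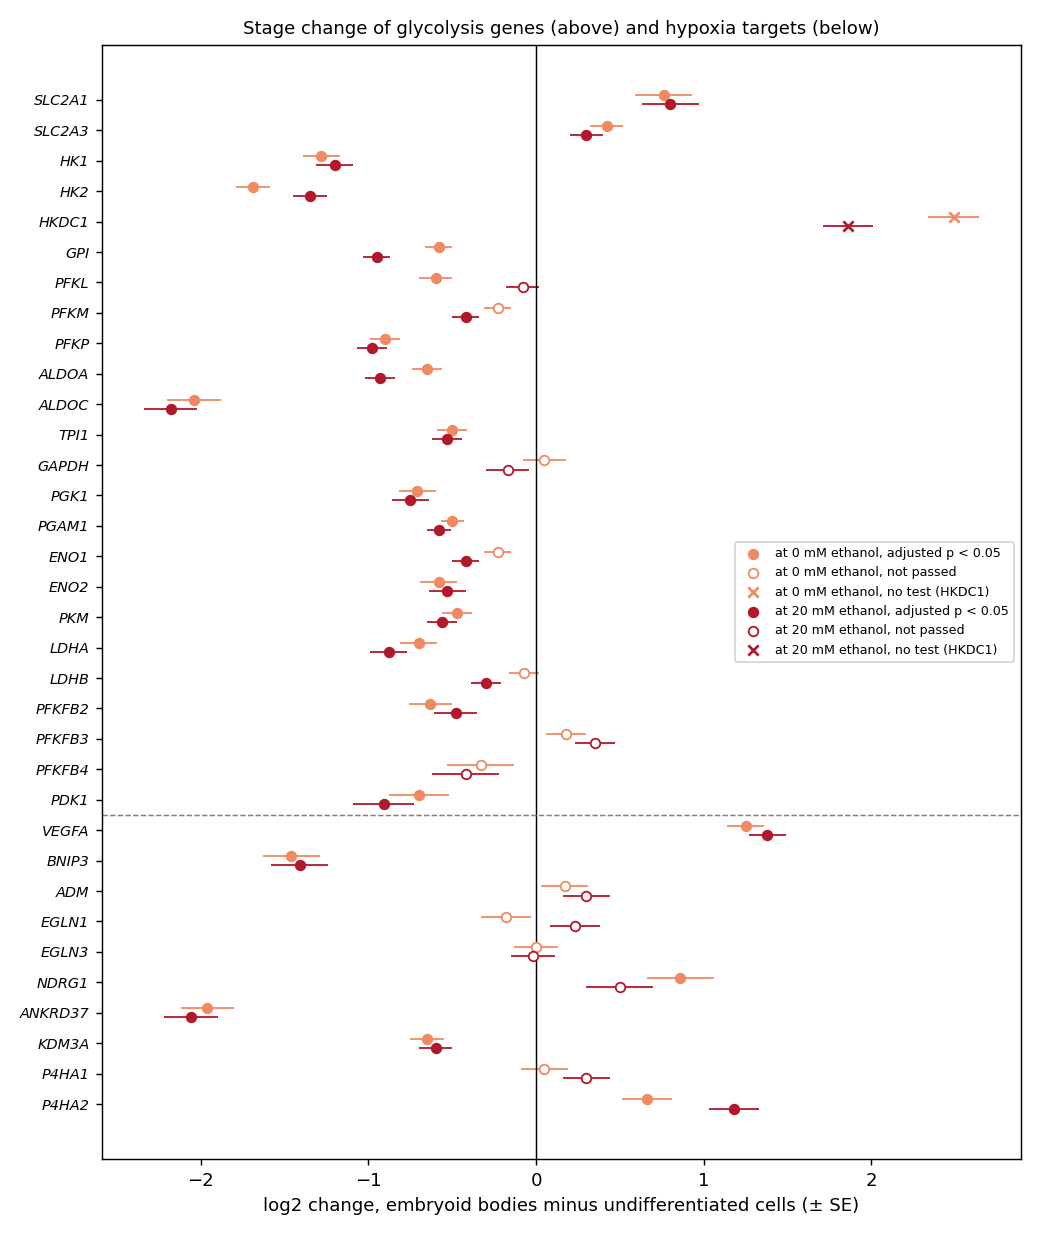
Log2 change of each of the 34 genes between embryoid bodies and undifferentiated cells, at 0 mM and at 20 mM ethanol, with standard errors of the limma fit. Filled points passed the adjusted threshold, open points did not, and crosses mark HKDC1, for which no test is given. Points left of 0 are lower in embryoid bodies. ALDOC at -2.04 and -2.18 and ANKRD37 at -1.96 and -2.06 lie farthest left, and VEGFA at 1.25 and 1.38 and HKDC1 at 2.49 and 1.86 farthest right.

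Promoter windows of the 4 genes with the largest falls at 0 mM and of the 2 with the largest rises among genes with a window are shown. ACGTG, a common form of the core of the hypoxia response element, was searched in all of them, and other forms were not. The windows run from 250 bases before to 50 after the gene's start, in the RefSeq annotation of GRCh38.p14, and read 5′ to 3′ on the gene's strand. Capitals mark each ACGTG on either strand; the palindrome CACGTG holds it on both strands, so matches overlap there. SLC2A1 and P4HA2 have no match in the window shown. HK2 has 2 annotated windows, of which 1 is shown. The regions are chr17:28576846-28577145 (minus strand) for the brain-type aldolase gene ALDOC, chr4:185396591-185396890 (plus) for the ankyrin repeat gene ANKRD37, chr2:74834920-74835219 (plus) for the inducible hexokinase gene HK2 and chr10:131981874-131982173 (minus) for the mitophagy receptor gene BNIP3. Those of genes that rose are chr1:42958819-42959118 (minus) for the glucose transporter gene SLC2A1 and chr5:132227042-132227341 (minus) for the collagen prolyl hydroxylase gene P4HA2.
ALDOC: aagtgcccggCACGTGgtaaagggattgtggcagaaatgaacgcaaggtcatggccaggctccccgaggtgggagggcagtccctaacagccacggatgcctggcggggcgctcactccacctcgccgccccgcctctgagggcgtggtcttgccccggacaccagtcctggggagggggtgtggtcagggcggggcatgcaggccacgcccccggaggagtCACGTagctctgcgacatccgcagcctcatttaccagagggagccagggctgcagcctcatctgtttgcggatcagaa
ANKRD37: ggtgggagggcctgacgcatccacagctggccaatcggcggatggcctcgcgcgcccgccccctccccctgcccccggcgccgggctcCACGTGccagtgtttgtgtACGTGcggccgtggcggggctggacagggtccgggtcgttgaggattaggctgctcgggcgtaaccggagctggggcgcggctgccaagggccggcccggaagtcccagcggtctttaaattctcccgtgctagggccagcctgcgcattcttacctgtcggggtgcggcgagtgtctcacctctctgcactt
HK2: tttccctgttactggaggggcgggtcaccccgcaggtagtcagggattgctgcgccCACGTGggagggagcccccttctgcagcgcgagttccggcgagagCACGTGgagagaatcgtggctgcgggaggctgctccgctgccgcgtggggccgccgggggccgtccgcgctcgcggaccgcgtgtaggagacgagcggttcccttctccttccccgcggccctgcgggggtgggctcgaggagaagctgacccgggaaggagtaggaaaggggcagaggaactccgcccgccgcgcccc
BNIP3: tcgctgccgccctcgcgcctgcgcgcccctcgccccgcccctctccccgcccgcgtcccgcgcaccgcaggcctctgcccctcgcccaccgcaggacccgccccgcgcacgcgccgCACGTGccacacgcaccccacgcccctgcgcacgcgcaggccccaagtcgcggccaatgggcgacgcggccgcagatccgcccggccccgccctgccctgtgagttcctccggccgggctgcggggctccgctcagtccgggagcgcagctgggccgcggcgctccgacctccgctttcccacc
SLC2A1: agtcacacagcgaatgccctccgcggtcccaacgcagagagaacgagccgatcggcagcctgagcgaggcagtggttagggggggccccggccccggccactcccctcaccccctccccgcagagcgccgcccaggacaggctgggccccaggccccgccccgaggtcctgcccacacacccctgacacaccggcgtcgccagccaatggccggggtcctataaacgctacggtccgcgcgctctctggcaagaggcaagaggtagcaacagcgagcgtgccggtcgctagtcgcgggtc
P4HA2: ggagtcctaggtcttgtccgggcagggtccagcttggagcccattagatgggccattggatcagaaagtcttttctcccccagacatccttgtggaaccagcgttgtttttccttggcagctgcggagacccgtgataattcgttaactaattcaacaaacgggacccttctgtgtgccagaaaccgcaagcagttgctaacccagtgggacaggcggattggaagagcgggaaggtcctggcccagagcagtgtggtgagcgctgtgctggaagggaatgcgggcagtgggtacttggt

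ACGTG was present in 21.4% of all 35116 promoter windows and in 24.6% of the windows of tested genes. Members had it in 39.6% of their windows, or in 17 of the 30 genes with a window, beside 31.5% of tested genes. Among members that fell at 0 mM, 12 of 17 genes with a window held ACGTG, beside 32.5% of all tested genes that fell. A gene counts when any of its windows holds it, and by windows the shares were 45.5% of 33 and 26.1% of 4027. Of members not called at 0 mM, 5 of 10 genes held ACGTG. Of the 5 members that rose, only SLC2A1 and P4HA2 had a window, which is too few to set against that share; VEGFA, SLC2A3, NDRG1 and the falling gene PFKFB2 were not searched. Hypoxia targets were listed because they are known as such, so the members' share is a description and no independent evidence. No match in a window says nothing of more distant elements or of other forms of the core.

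Of the 23 glycolysis members counted, the glucose transporters were the only ones that rose. SLC2A1, which encodes the widespread transporter GLUT1, had signals of 2690 and 2190 at 20 mM and 2190 and 2510 at 0 mM in embryoid bodies, against 1450 and 1350 at 20 mM and 1580 and 1200 at 0 mM in undifferentiated cells. Its stages did not overlap, and it rose 1.7-fold at 0 mM (log2 change 0.76 ± 0.17, adjusted p = 0.0127) and 1.74-fold at 20 mM (log2 change 0.80 ± 0.17, adjusted p = 0.00981). A second probe set of SLC2A1 was at 1.0 and 1.66. After median centring SLC2A1 was at 0.50 and 0.38 and no longer passed (adjusted p = 0.0543 and 0.107). SLC2A3, which encodes the high-affinity transporter GLUT3, had 20400 and 18600 at 20 mM and 21900 and 20400 at 0 mM in embryoid bodies, against 16200 and 15500 at 20 mM and 17000 and 14800 at 0 mM in undifferentiated cells. SLC2A3 rose 1.33-fold at 0 mM (log2 change 0.42 ± 0.10, adjusted p = 0.016) and 1.23-fold at 20 mM (log2 change 0.30 ± 0.10, adjusted p = 0.0449), a small change that did not hold under many settings. Further SLC2A3 probe sets, above the median on all arrays, were at 0.53 and 0.56, and at 0.10 and 0.35. Median centring put the set used at 0.15 at 0 mM (adjusted p = 0.266) and turned it to -0.12 at 20 mM. At 20 mM no filter (adjusted p = 0.0871) and a fit of only the arrays compared (0.0656) also ended the call, which held in 10 of 19 settings. Leaving out 1 array ended the call of SLC2A1 at 0 mM (embryoid body replicate B, adjusted p = 0.0686) and at 20 mM (embryoid body replicate A, 0.0529), and that of SLC2A3 at both doses. The log2 ratio of SLC2A3 to SLC2A1 moved by -0.35 at 0 mM and -0.50 at 20 mM without overlap between stages. The largest gap between replicates was 0.30, near the size of the shift at 0 mM.

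Hexokinase, the first enzyme of the pathway, traps glucose as glucose 6-phosphate. Its widespread form HK1, on chromosome 10, had signals of 2340 and 1910 at 20 mM and 2040 and 1910 at 0 mM in embryoid bodies, against 4790 and 4900 at 20 mM and 4790 and 4790 at 0 mM in undifferentiated cells. HK2, the form most responsive to insulin and hypoxia, on chromosome 2, had 1860 and 2090 at 20 mM and 1580 and 1740 at 0 mM in embryoid bodies, against 4790 and 5250 at 20 mM and 5620 and 5130 at 0 mM in undifferentiated cells. Every embryoid body array lay under every undifferentiated array for both genes. HK1 fell 2.43-fold at 0 mM (log2 change -1.28 ± 0.11, adjusted p = 0.000477) and 2.29-fold at 20 mM (log2 change -1.20 ± 0.11, adjusted p = 0.000506). HK2 fell 3.24-fold at 0 mM (log2 change -1.69 ± 0.10, adjusted p = 0.000161) and 2.54-fold at 20 mM (log2 change -1.35 ± 0.10, adjusted p = 0.000279). The log2 ratio of HK1 to HK2 moved by 0.42 at 0 mM and 0.15 at 20 mM, with overlapping arrays and a largest gap between replicates of 0.47. Dimmer probe sets of HK2 were at 0.23 and -0.33, and at -0.10 and 0.23.

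HKDC1, a hexokinase gene next to HK1, had the reverse order of stages, with no test. Its signals were 123 and 105 at 20 mM and 47.9 and 56.2 at 0 mM in embryoid bodies, against 28.2 and 34.7 at 20 mM and 9.55 and 8.91 at 0 mM in undifferentiated cells. Both undifferentiated groups lay far under the array median, and only the 20 mM embryoid body arrays lay above it. The fitted change was 2.49 at 0 mM and 1.86 at 20 mM, which depends on very low values. With all signals below 32 set to 32 it was 0.70 at 0 mM and 1.77 at 20 mM. The other 3 probe sets of HKDC1 had group means of at most 39.4, under the array medians, so these values rest on 1 probe set. HK1 and HKDC1 lie on the plus strand of chromosome 10 with 49.7 kb between their first starts.

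Glucose phosphate isomerase, GPI, makes fructose 6-phosphate and had signals of 2090 and 2000 at 20 mM and 2630 and 2690 at 0 mM in embryoid bodies, against 4070 and 3800 at 20 mM and 4170 and 3800 at 0 mM in undifferentiated cells. It fell 1.5-fold at 0 mM (log2 change -0.58 ± 0.08, adjusted p = 0.00228) and 1.93-fold at 20 mM (log2 change -0.95 ± 0.08, adjusted p = 0.000395), without overlap between stages. Phosphofructokinase, the committed step, has muscle (PFKM), liver (PFKL) and platelet (PFKP) forms. PFKM had 3020 and 2820 at 20 mM and 3390 and 3310 at 0 mM in embryoid bodies, against 4070 and 3720 at 20 mM and 4070 and 3800 at 0 mM in undifferentiated cells. PFKL had 708 and 724 at 20 mM and 513 and 513 at 0 mM in embryoid bodies, against 813 and 708 at 20 mM and 832 and 724 at 0 mM in undifferentiated cells. PFKP had 2290 and 2000 at 20 mM and 2240 and 2400 at 0 mM in embryoid bodies, against 4170 and 4270 at 20 mM and 4470 and 4170 at 0 mM in undifferentiated cells. PFKP was under all undifferentiated values on every embryoid body array, whereas 20 mM embryoid bodies had more PFKL than 0 mM embryoid bodies on both arrays.

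PFKP fell 1.86-fold at 0 mM (log2 change -0.90 ± 0.09, adjusted p = 0.000897) and 1.97-fold at 20 mM (log2 change -0.98 ± 0.09, adjusted p = 0.000569); the mean of its probe sets ended both calls, through a set with group means of 23.7 to 55.6 that was under the array median on all arrays. PFKL fell at 0 mM by 0.60 ± 0.10 on the log2 scale (adjusted p = 0.0049), and its value at 20 mM was -0.08 ± 0.10 (adjusted p = 0.527). PFKM had -0.23 ± 0.08 at 0 mM (adjusted p = 0.0608) and fell at 20 mM (-0.42 ± 0.08, adjusted p = 0.00783). The log2 ratio of PFKP to PFKL moved by -0.30 at 0 mM and -0.90 at 20 mM without overlap between stages. Its largest gap between replicates was 0.23, near the size of the shift at 0 mM. For PFKM to PFKL the log2 ratio moved by 0.37 at 0 mM and -0.33 at 20 mM, with opposite signs at the 2 doses. Another probe set of PFKL was at -0.17 and 0.10.

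Aldolase splits fructose 1,6-bisphosphate. ALDOA, the main form outside liver and brain, had signals of 9770 and 8710 at 20 mM and 11500 and 11200 at 0 mM in embryoid bodies, against 18600 and 16600 at 20 mM and 18200 and 17400 at 0 mM in undifferentiated cells. ALDOC, the brain form, had 550 and 417 at 20 mM and 550 and 631 at 0 mM in embryoid bodies, against 2090 and 2240 at 20 mM and 2630 and 2240 at 0 mM in undifferentiated cells. Both genes separated the stages on every array, with the wider gap for ALDOC. ALDOC fell 4.12-fold at 0 mM (log2 change -2.04 ± 0.16, adjusted p = 0.000359) and 4.52-fold at 20 mM (log2 change -2.18 ± 0.16, adjusted p = 0.000254). ALDOA fell 1.57-fold at 0 mM (log2 change -0.65 ± 0.09, adjusted p = 0.00269) and 1.91-fold at 20 mM (log2 change -0.93 ± 0.09, adjusted p = 0.000666). Relative to ALDOA, the log2 signal of ALDOC moved by -1.40 at 0 mM and -1.25 at 20 mM, against a largest gap of 0.27 between replicates, and the stages did not overlap. The probe set used for ALDOA is of a kind prone to cross-hybridise (_x_at), and so are its other 2, which were above the median on all arrays and were at -0.61 and -0.85, and at -1.69 and -1.0.

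**Figure D2:**
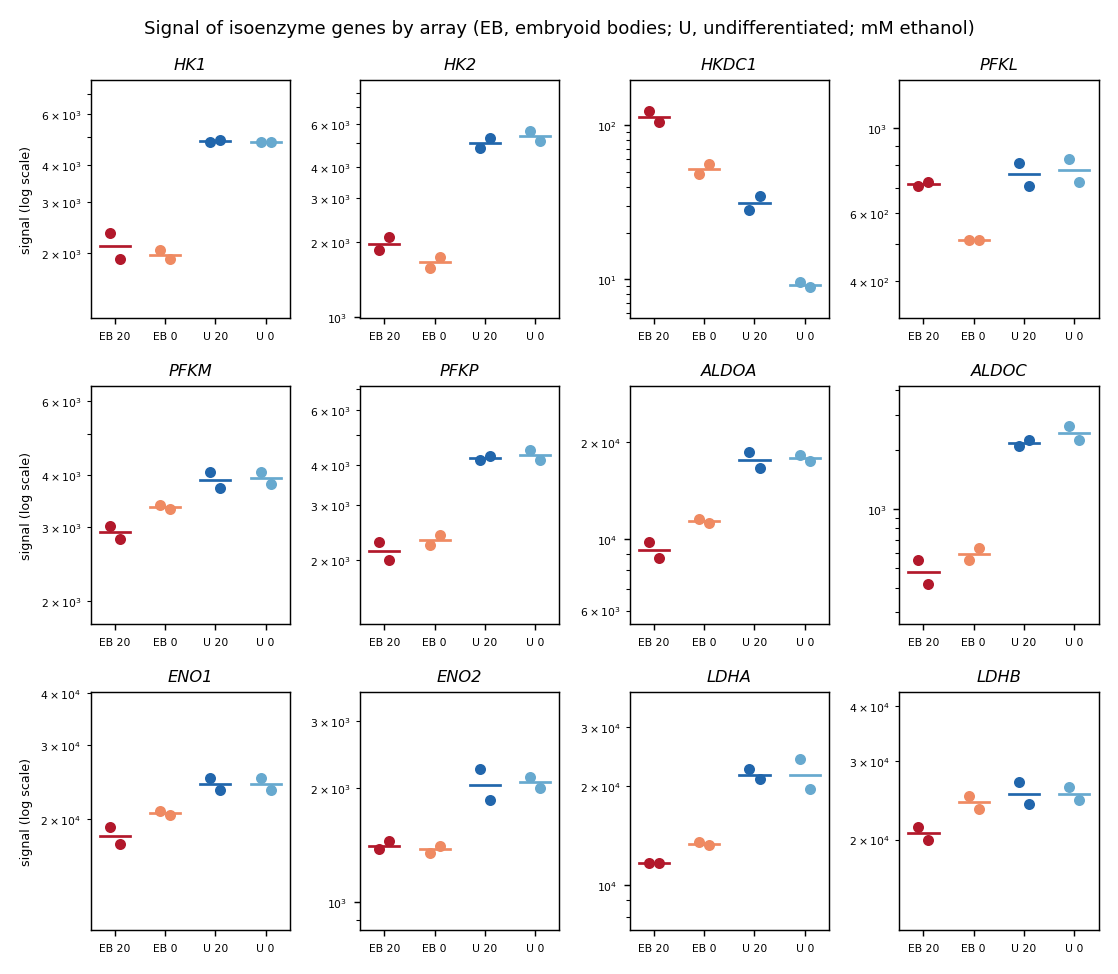
Signals of isoenzyme genes on each array (log scale), with the 4 groups from left to right as embryoid bodies at 20 mM and 0 mM and undifferentiated cells at 20 mM and 0 mM. Each point is 1 array, and bars are means of the log values. HK1, HK2, ALDOA, ALDOC, PFKP and LDHA lie lower on all embryoid body arrays than on all undifferentiated arrays, and HKDC1 higher.

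Of 4 genes of the middle steps, 3 fell. TPI1, triose phosphate isomerase, had signals of 10700 and 9550 at 20 mM and 11500 and 11500 at 0 mM in embryoid bodies, against 14800 and 14500 at 20 mM and 17000 and 15500 at 0 mM in undifferentiated cells. TPI1 fell 1.41-fold at 0 mM (log2 change -0.50 ± 0.09, adjusted p = 0.00528) and 1.45-fold at 20 mM (log2 change -0.53 ± 0.09, adjusted p = 0.00364). GAPDH, which oxidises glyceraldehyde 3-phosphate and often serves as a loading control, had 22900 and 21400 at 20 mM and 24500 and 24000 at 0 mM in embryoid bodies, against 28200 and 21900 at 20 mM and 22400 and 24500 at 0 mM in undifferentiated cells. GAPDH did not pass, at 0.05 ± 0.13 for 0 mM (adjusted p = 0.774) and -0.17 ± 0.13 for 20 mM (adjusted p = 0.329). PGK1, the first ATP-yielding enzyme, had 11700 and 11700 at 20 mM and 12900 and 12600 at 0 mM in embryoid bodies, against 21400 and 18200 at 20 mM and 22400 and 19500 at 0 mM in undifferentiated cells. It fell 1.64-fold at 0 mM (log2 change -0.71 ± 0.11, adjusted p = 0.00313) and 1.68-fold at 20 mM (log2 change -0.75 ± 0.11, adjusted p = 0.0023), and its other 4 probe sets above the array median ran from -0.85 to -1.20 at 0 mM and from -0.50 to -1.28 at 20 mM. PGAM1, phosphoglycerate mutase, had 11000 and 11200 at 20 mM and 11500 and 11200 at 0 mM in embryoid bodies, against 17400 and 15800 at 20 mM and 15800 and 16200 at 0 mM in undifferentiated cells. PGAM1 fell 1.41-fold at 0 mM (log2 change -0.50 ± 0.07, adjusted p = 0.00289) and 1.5-fold at 20 mM (log2 change -0.58 ± 0.07, adjusted p = 0.00143). A set of TPI1 outside the cross-hybridising kinds was at 0.12 and 0.02, so the fall of TPI1 was not seen there.

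Enolase makes phosphoenolpyruvate. ENO1, the widespread form, had signals of 19100 and 17400 at 20 mM and 20900 and 20400 at 0 mM in embryoid bodies, against 25100 and 23400 at 20 mM and 25100 and 23400 at 0 mM in undifferentiated cells. ENO2, the neuronal form, had 1380 and 1450 at 20 mM and 1350 and 1410 at 0 mM in embryoid bodies, against 2240 and 1860 at 20 mM and 2140 and 2000 at 0 mM in undifferentiated cells. Both were lower in embryoid bodies on average, and ENO2 fell 1.5-fold at 0 mM (log2 change -0.58 ± 0.11, adjusted p = 0.00616) and 1.45-fold at 20 mM (log2 change -0.53 ± 0.11, adjusted p = 0.00768). ENO1 had -0.23 ± 0.08 at 0 mM (adjusted p = 0.0608) and fell at 20 mM (-0.42 ± 0.08, adjusted p = 0.00783). Quantile normalisation (-0.16, adjusted p = 0.0912) and cyclic loess (-0.03, adjusted p = 0.758) ended the 20 mM call. The mean of the ENO1 probe sets was at 0.23 for 20 mM, through a set with group means of 20 to 76.7 at 1.94, while its other bright sets were at -0.35 and -0.38, and at -0.17 and -0.22. Relative to ENO1, the log2 signal of ENO2 moved by -0.35 at 0 mM and -0.12 at 20 mM with overlap between stages. Of 8 neural markers 7 rose in embryoid bodies at each dose, beside 28% and 29.2% of all tested genes, while the neuronal enolase gene fell. The other marker, TUBB3, was at -0.03 at 0 mM and fell at 20 mM (-0.27, limma adjusted p = 0.0339). ELAVL3, counted among the 7, passed the filter on dim genes through the embryoid bodies, so its rise gives no support to that count. Its mean signals were 138 at 20 mM and 129 at 0 mM in embryoid bodies. In undifferentiated cells they were 35.5 and 50.7, under the array medians.

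Pyruvate kinase, which yields the last ATP of the pathway, is encoded by PKM outside liver and red cells. Its brightest probe set had signals of 2140 and 1910 at 20 mM and 2190 and 2190 at 0 mM in embryoid bodies, against 3090 and 2880 at 20 mM and 3090 and 2950 at 0 mM in undifferentiated cells. By this probe set PKM fell 1.38-fold at 0 mM (log2 change -0.47 ± 0.09, adjusted p = 0.00619) and 1.48-fold at 20 mM (log2 change -0.56 ± 0.09, adjusted p = 0.00265). A dimmer set of PKM, with group means of 115 to 248 and above the median on all arrays, was at 1.11 and 0.83, so the direction depends on the probe set, and the mean of all PKM probe sets was at 0.32 and 0.13. Which transcripts each reads was not tested.

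Lactate dehydrogenase showed a change of the isoenzyme ratio by the probe sets used. LDHA, the subunit that favours lactate formation, had signals of 11700 and 11700 at 20 mM and 13500 and 13200 at 0 mM in embryoid bodies, against 22400 and 20900 at 20 mM and 24000 and 19500 at 0 mM in undifferentiated cells. LDHB, the heart subunit, had 21400 and 20000 at 20 mM and 25100 and 23400 at 0 mM in embryoid bodies, against 26900 and 24000 at 20 mM and 26300 and 24500 at 0 mM in undifferentiated cells. LDHA was lower on all embryoid body arrays, whereas at 0 mM the LDHB values of the stages overlapped. LDHA fell 1.62-fold at 0 mM (log2 change -0.70 ± 0.11, adjusted p = 0.00365) and 1.84-fold at 20 mM (log2 change -0.88 ± 0.11, adjusted p = 0.00138). LDHB had -0.07 ± 0.09 at 0 mM (adjusted p = 0.576) and fell at 20 mM (-0.30 ± 0.09, adjusted p = 0.0362). That call held in 10 of 19 settings: cyclic loess turned it to 0.10, quantile normalisation put it at -0.08 (adjusted p = 0.29), and no filter (0.0735), a fit of only the arrays compared (0.0844) or leaving out 1 of 5 arrays ended it. Relative to LDHB, the log2 signal of LDHA moved by -0.63 at 0 mM and -0.58 at 20 mM, against a largest gap of 0.20 between replicates. Another LDHB probe set, above the median on all arrays, was at -0.20 and -0.47, a larger fall than in the set used. The shift of LDHA relative to that set is therefore smaller. Both LDHB sets are of the kind prone to cross-hybridise (_x_at).

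**Figure D3:**
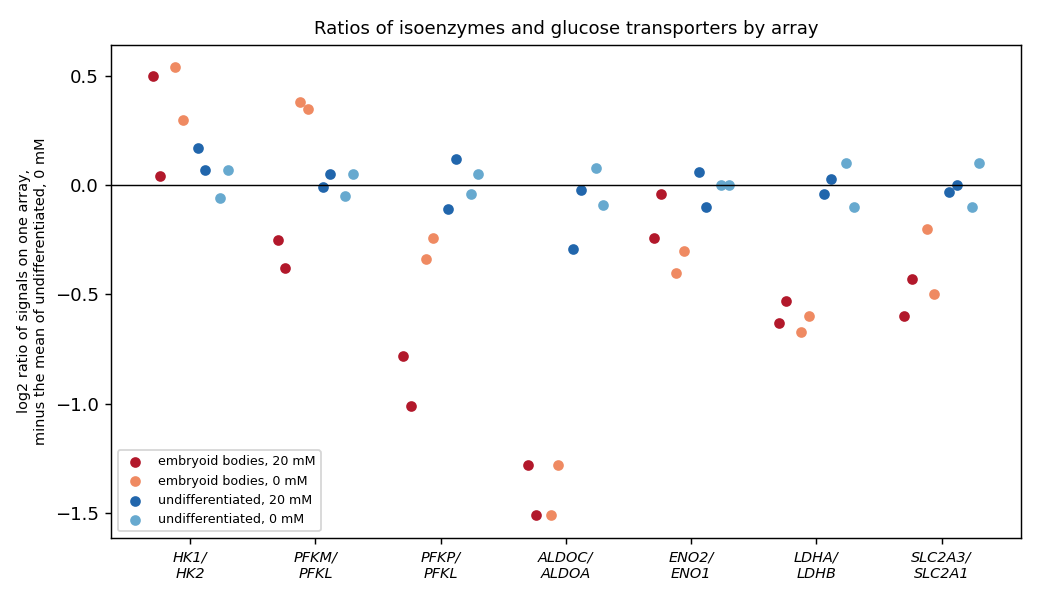
Log2 ratio of the signals of 2 isoenzyme genes on each array, set to 0 at the mean of undifferentiated cells at 0 mM, for 7 pairs. Each point is 1 array. ALDOC over ALDOA (-1.40 and -1.25), LDHA over LDHB (-0.63 and -0.58), PFKP over PFKL (-0.30 and -0.90) and SLC2A3 over SLC2A1 (-0.35 and -0.50) moved without overlap between stages at 0 and 20 mM.

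Of 4 regulators of the pathway, PFKFB2 and PDK1 fell. PFKFB2, PFKFB3 and PFKFB4 make and remove fructose 2,6-bisphosphate, the activator of phosphofructokinase. PFKFB2 had signals of 389 and 339 at 20 mM and 302 and 339 at 0 mM in embryoid bodies, against 479 and 537 at 20 mM and 537 and 457 at 0 mM in undifferentiated cells. PFKFB2 fell 1.55-fold at 0 mM (log2 change -0.63 ± 0.13, adjusted p = 0.00896) and 1.4-fold at 20 mM (log2 change -0.48 ± 0.13, adjusted p = 0.0216). Leaving out 1 array ended the call at 0 mM (embryoid body replicate A, adjusted p = 0.0527) and at 20 mM (embryoid body replicate B, 0.107, or undifferentiated replicate B, 0.0904). The mean of the PFKFB2 probe sets was at -0.36 (adjusted p = 0.482) and -0.05 (adjusted p = 0.935); another set, above the median on 7 arrays, was at -0.90 and -1.45, and 2 more were dim. PFKFB3 was at 0.18 ± 0.12 and 0.35 ± 0.12, and PFKFB4 at -0.33 ± 0.20 and -0.42 ± 0.20, none of which passed. PDK1, the kinase that blocks pyruvate dehydrogenase and a known hypoxia target, had 1780 and 1860 at 20 mM and 2290 and 2340 at 0 mM in embryoid bodies, against 3090 and 3800 at 20 mM and 4470 and 3160 at 0 mM in undifferentiated cells. PDK1 fell 1.62-fold at 0 mM (log2 change -0.70 ± 0.18, adjusted p = 0.0216) and 1.88-fold at 20 mM (log2 change -0.91 ± 0.18, adjusted p = 0.00751), and at 0 mM the call was lost without either embryoid body array or without undifferentiated replicate A (adjusted p of 0.0642 to 0.0856).

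Hypoxia targets changed in both directions, as all tested genes did. Of 10, 3 rose and 3 fell at 0 mM, and 2 rose and 3 fell at 20 mM, with medians of 0.02 and 0.27. The 3 that fell at both doses were ANKRD37, BNIP3 and KDM3A, and the 2 that rose at both were VEGFA and P4HA2. These shares, 30% higher and 30% lower at 0 mM, stand beside 28% and 24.7% of all tested genes. At 20 mM they were 20% and 30%, beside 29.2% and 27.1%. With 10 genes these shares are near those of all genes and show no trait of the list.

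ANKRD37, whose promoter above holds 2 stretches with ACGTG, had signals of 145 and 132 at 20 mM and 178 and 138 at 0 mM in embryoid bodies, against 589 and 562 at 20 mM and 676 and 550 at 0 mM in undifferentiated cells. BNIP3, a mitochondrial outer membrane receptor for mitophagy, had 2340 and 2570 at 20 mM and 2820 and 2820 at 0 mM in embryoid bodies, against 6760 and 6310 at 20 mM and 9330 and 6460 at 0 mM in undifferentiated cells. KDM3A, a histone H3 lysine 9 demethylase induced by hypoxia, had 1410 and 1580 at 20 mM and 1410 and 1410 at 0 mM in embryoid bodies, against 2400 and 2140 at 20 mM and 2340 and 2090 at 0 mM in undifferentiated cells. All embryoid body arrays lay below all undifferentiated arrays for these genes. ANKRD37 fell 3.89-fold at 0 mM (log2 change -1.96 ± 0.16, adjusted p = 0.000373) and 4.17-fold at 20 mM (log2 change -2.06 ± 0.16, adjusted p = 0.000275). BNIP3 fell 2.75-fold at 0 mM (log2 change -1.46 ± 0.17, adjusted p = 0.00135) and 2.66-fold at 20 mM (log2 change -1.41 ± 0.17, adjusted p = 0.00127), with a second probe set at -1.43 and -1.49. KDM3A fell 1.57-fold at 0 mM (log2 change -0.65 ± 0.10, adjusted p = 0.00376) and 1.51-fold at 20 mM (log2 change -0.60 ± 0.10, adjusted p = 0.00447), and the mean of its 2 probe sets was at 0.49 for 20 mM. The other set of KDM3A had group means of 2.3 to 12.6, far under the median on all arrays, so the sign of that mean comes from a set without signal.

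VEGFA, the main growth factor for blood vessels, had signals of 3090 and 3550 at 20 mM and 2690 and 2690 at 0 mM in embryoid bodies, against 1230 and 1320 at 20 mM and 1230 and 1050 at 0 mM in undifferentiated cells. P4HA2, a subunit of the prolyl hydroxylase that modifies collagen, had 1290 and 1450 at 20 mM and 1020 and 1100 at 0 mM in embryoid bodies, against 646 and 562 at 20 mM and 759 and 589 at 0 mM in undifferentiated cells. NDRG1, a stress-responsive gene raised by hypoxia, had 269 and 263 at 20 mM and 263 and 380 at 0 mM in embryoid bodies, against 209 and 170 at 20 mM and 162 and 186 at 0 mM in undifferentiated cells. VEGFA and P4HA2 were higher on every embryoid body array than on any undifferentiated array. VEGFA rose 2.37-fold at 0 mM (log2 change 1.25 ± 0.11, adjusted p = 0.000542) and 2.6-fold at 20 mM (log2 change 1.38 ± 0.11, adjusted p = 0.000337), with other probe sets from -0.05 to 0.91 at 0 mM. P4HA2 rose 1.58-fold at 0 mM (log2 change 0.66 ± 0.15, adjusted p = 0.0123) and 2.26-fold at 20 mM (log2 change 1.18 ± 0.15, adjusted p = 0.00134), and lost the 0 mM call without embryoid body replicate B (adjusted p = 0.0642) or after median centring (0.40, adjusted p = 0.0622). A second bright set of P4HA2 was at 0.30 and 0.66; the mean of its probe sets was at -0.17 for 0 mM, through another set with group means of 7.4 to 24.8 and under the median on all arrays. NDRG1 rose at 0 mM (0.86 ± 0.20, adjusted p = 0.0137) with 0.50 ± 0.20 at 20 mM (adjusted p = 0.0764), and lost the 0 mM call without undifferentiated replicate A (adjusted p = 0.0692).

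The remaining hypoxia targets did not pass. ADM, the vasodilator adrenomedullin, was at 0.17 ± 0.14 and 0.30 ± 0.14, and P4HA1, which encodes the other widespread alpha subunit of that prolyl hydroxylase, at 0.05 ± 0.14 and 0.30 ± 0.14. EGLN1 and EGLN3, the oxygen-sensing prolyl hydroxylases that are themselves targets, were at -0.18 ± 0.15 and 0.23 ± 0.15, and at 0.00 ± 0.13 and -0.02 ± 0.13. A second probe set of EGLN3 was at -0.27 and -0.65.

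**Figure D4:**
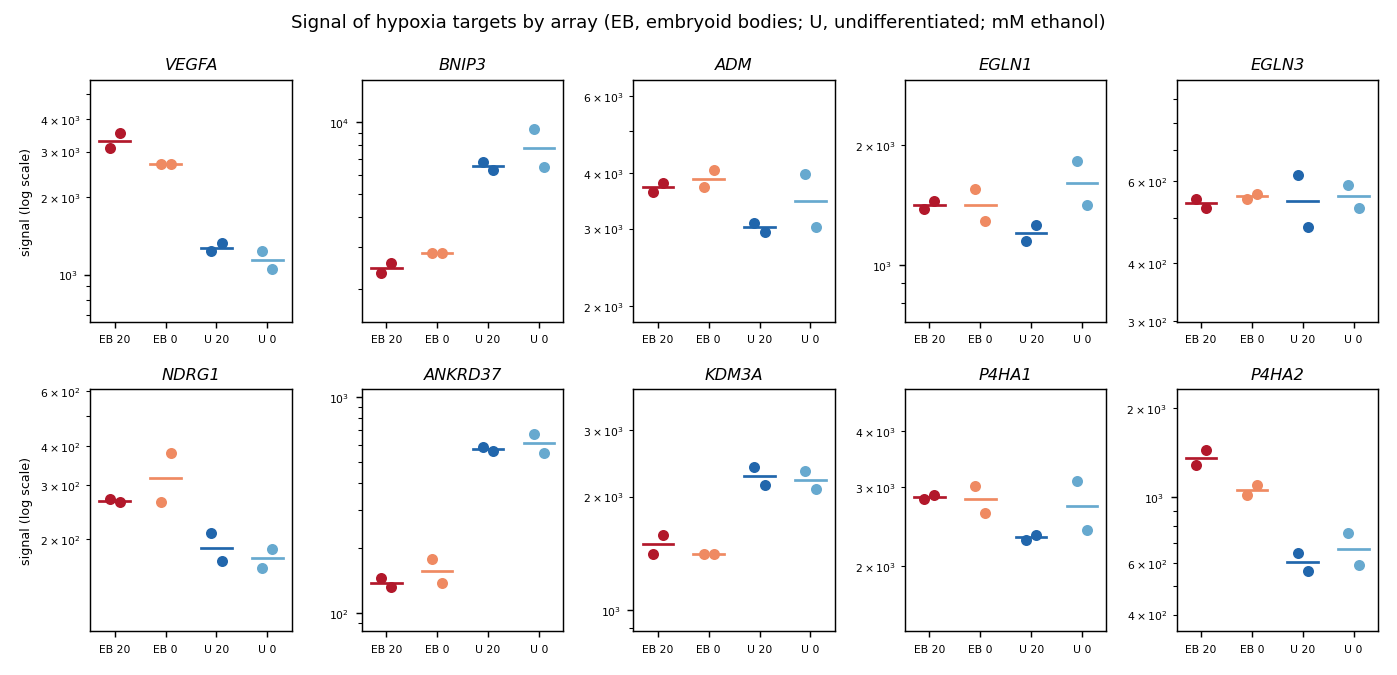
Signals of the 10 hypoxia targets on each array (log scale), with groups from left to right as embryoid bodies at 20 mM and 0 mM and undifferentiated cells at 20 mM and 0 mM. Each point is 1 array, and bars are means of the log values. ANKRD37, BNIP3 and KDM3A lie lower on all embryoid body arrays, and VEGFA and P4HA2 higher.

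Further genes of the same pathways did not share 1 direction. Of 22 other tested glycolysis genes, 8 rose and 4 fell at 0 mM (36.4% and 18.2%), and 9 rose and 5 fell at 20 mM (40.9% and 22.7%), beside 28% and 24.7%, and 29.2% and 27.1%, of all tested genes. The muscle enolase ENO3 rose 2.72-fold (log2 change 1.45 ± 0.08, adjusted p = 0.000137) and 2.37-fold (1.25, adjusted p = 0.000184), unlike ENO1 and ENO2. ADPGK, an ADP-dependent glucokinase, rose 1.95-fold and 1.86-fold (adjusted p = 0.000225 and 0.000237). Those counts include the monocarboxylate transporter gene SLC16A4, which entered only through the embryoid bodies and gets no test of its own, with mean signals of 232 at 20 mM and 182 at 0 mM in embryoid bodies, against 9.12 and 16.6 in undifferentiated cells.

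Of 10 tested genes of the pyruvate dehydrogenase complex and its regulators, 1 rose at each dose (10%), and 5 fell at 0 mM (50%) and 4 at 20 mM (40%). Of all tested genes 28% rose and 24.7% fell at 0 mM, and 29.2% rose and 27.1% fell at 20 mM. PDHB, a subunit of the complex, fell by 0.71 and 0.78 on the log2 scale (adjusted p = 0.000833 and 0.000531), its partner subunit DLAT had -0.65 and -0.63, and the kinase PDK3 had -0.47 and -0.83, all called. The 1 counted as higher is the kinase gene PDK4, which also entered only through the embryoid bodies, with mean signals of 158 in both embryoid body groups, against 1.86 and 9.23 in undifferentiated cells.

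Of 39 other tested hypoxia genes, 13 rose and 12 fell at 0 mM (33.3% and 30.8%), and 13 rose and 11 fell at 20 mM (33.3% and 28.2%), with medians of 0.02 and 0.00. These shares are near the 28% and 24.7%, and the 29.2% and 27.1%, of all tested genes. STC1, a secreted glycoprotein, fell by 2.59 and 2.39 on the log2 scale (adjusted p = 8.82e-05 and 9.68e-05), and the stress gene DDIT4 had changes of -1.71 and -1.83. P4HB, the common partner of both P4HA subunits, rose by 0.71 and 0.80 (adjusted p = 0.000761 and 0.000455). ARNT2, a partner of hypoxia-inducible factors, rose by 1.13 and 1.23. The collagen crosslinking enzyme gene LOX, among those counted, entered only through the embryoid bodies, with mean signals of 372 and 158 there, against 50.7 and 51.9 in undifferentiated cells. A gene counted as lower had the reverse, with embryoid body means of 55 at 20 mM and 78.5 at 0 mM, under the array medians. Its means in undifferentiated cells were 178 and 182.

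None of the 33 genes passed the adjusted threshold for ethanol. In embryoid bodies 0 of 33 passed (limma, Benjamini-Hochberg), where 10 genes, 0.071% of those tested, did. An unadjusted p under 0.05 was found for 6 of the 33, where 22.3% of all genes had one. In undifferentiated cells 0 of 33 passed, beside 1 gene, 0.0071%, and 1 of the 33 had an unadjusted p under 0.05, beside 7% of genes. The medians of the 33 genes were -0.12 in embryoid bodies and -0.02 in undifferentiated cells, while the brightest 10% of genes had medians of -0.10 and -0.02.

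In embryoid bodies the smallest p among the 33 belonged to GPI and PFKL. GPI had signals of 2090 and 2000 at 20 mM, against 2630 and 2690 at 0 mM, at -0.38 ± 0.08 (adjusted p = 0.0989). PFKL had signals of 708 and 724 at 20 mM, against 513 and 513 at 0 mM, at 0.48 ± 0.10 (adjusted p = 0.0989), and its other probe set was at 0.25. HKDC1, with no test, had signals of 123 and 105 at 20 mM, against 47.9 and 56.2 at 0 mM, a log2 change of 1.13. The doses did not overlap for GPI and PFKL, which were picked by p in this same comparison, so this is a description only. HKDC1 passed the filter only through its 20 mM arrays, so its lack of overlap between doses gives no support. Arrays at 20 mM lay all below those at 0 mM for 12 of the 33 genes and all above for 4, where 28.1% and 29.4% of tested genes did so. Summed mesoderm and endoderm markers, given above, were also higher at 20 mM on both embryoid body arrays; their part in these values was not tested.

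The call count in embryoid bodies depended on the analysis. Of the 33 genes, a trended and robust variance model called 3 and a filter at the 75th percentile 2, beside 6.81% and 5.22% of all tested genes. A floor of 32 on the signals called 0, beside 1.09%. Median centring called 13, all lower, when 30.1% of all genes were called and their median was -0.27.

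In undifferentiated cells the smallest p among the 33 belonged to EGLN1 and TPI1. EGLN1 had signals of 1150 and 1260 at 20 mM, against 1820 and 1410 at 0 mM, at -0.42 ± 0.15 (adjusted p = 0.681). Without replicate A of the 0 mM cells it was at -0.23. That array was the highest of 4 undifferentiated arrays for 19 of 34 members (55.9%), beside 19.4% of all genes. Other EGLN1 probe sets were at -0.05 (above the median on 8 arrays) and 0.20 (on 6 arrays). A dim set, with group means of 2.7 to 5.4, was at -1.03. TPI1 had signals of 14800 and 14500 at 20 mM, against 17000 and 15500 at 0 mM, at -0.15 ± 0.09 (adjusted p = 0.812). HKDC1, with no test, had signals of 28.2 and 34.7 at 20 mM, against 9.55 and 8.91 at 0 mM, all under the array medians, a log2 change of 1.76 that became 0.06 with the floor of 32.

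The difference between stages in the ethanol effect (embryoid bodies minus undifferentiated cells) passed for 0 of the 33 and 0% of all genes by limma, with an unadjusted p under 0.05 for 2 of the 33 and 13% of genes. It was 0.51 ± 0.15 for PFKL (adjusted p = 0.315) and -0.37 ± 0.11 for GPI (adjusted p = 0.327). For HKDC1, with no test, it was -0.63, which the floor of 32 turned to 1.07. The log2 ratio of PFKP to PFKL moved by -0.60 with ethanol in embryoid bodies and by 0.00 in undifferentiated cells.

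**Figure D5:**
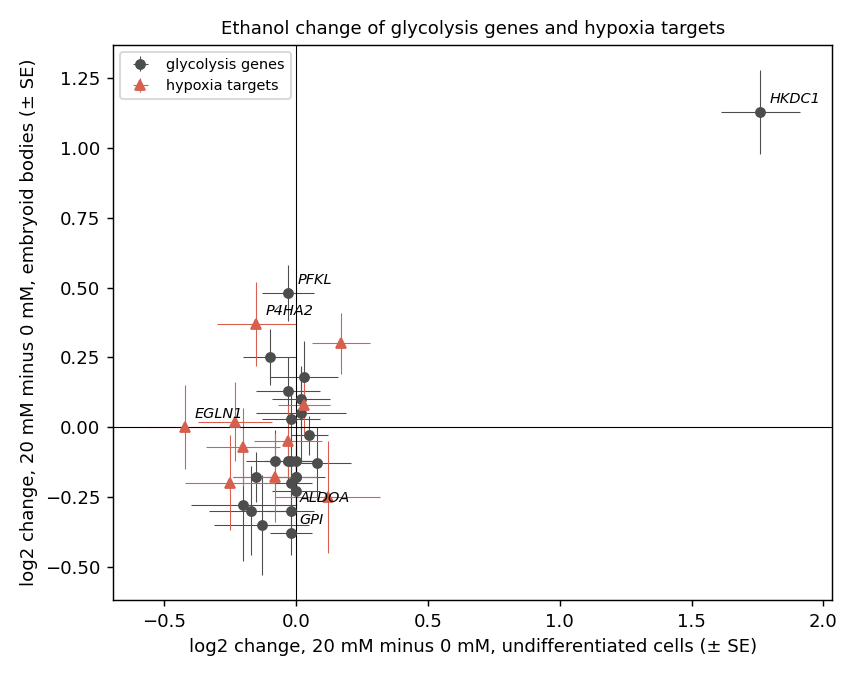
Log2 change with 20 mM ethanol of each of the 34 genes in undifferentiated cells (horizontal) and in embryoid bodies (vertical). Each point is 1 gene with standard errors of the limma fit, and no change of the 33 tested genes passed the adjusted threshold. HKDC1, with no test, lies apart at 1.76 and 1.13, and PFKL (0.48) and GPI (-0.38) lie highest and lowest of the others in embryoid bodies.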

How the data were processed

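Values of 8 arrays in 4 groups of 2 were used as the authors deposited them, as log10 signals by the evidence of the values (-1.46 to 4.61, in steps of 0.01). The submitters' processing notes name RMA, without a version, but a shared trimmed mean (2% at each end) and negative values are the form of scaled MAS 5 signals. The plan assumed log2 RMA values. The deposited log10 values were multiplied by 3.322 to give log2, so 1 step is 0.033, and were not normalised again.

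Of 54675 probe sets, 41097 name 1 gene, 1801 several, and 11777 none in the platform annotation. The highest-mean probe set stood for a gene; 5 of those used for members are of the _x_at and 14 of the _s_at kind, which can read related sequences, pseudogenes included. Genes with at least 2 arrays above the array median (14079) were tested on the log2 scale in R 4.3.3. The limma 3.58.1 model held a mean for each group, used all 8 arrays (residual degrees of freedom 4, prior 1.81) and was followed by Benjamini-Hochberg adjustment. Errors are standard errors, with n = 2 arrays per group, and the number of arrays limits the precision. The fit was tested on simulated data, and figures were drawn with matplotlib 3.10.9. In a check of pairing, like-lettered arrays did not deviate together (correlations of -0.026 to 0.049), so no block was used.

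All members may be named; of other listed pathway genes up to 4 per list and stage comparison with the smallest p are named. The members and lists were chosen with earlier results of these data known. The 20 alternative settings covered probe set choice, filter, scaling, floor, variance model, a replicate block, fits within a stage or dose, and each array left out. Promoter windows come from RefSeq (GRCh38.p14).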

Additional observations from a re-analysis of the deposited data

How the results depend on the processing

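The call counts here include HKDC1, which entered only through the 20 mM embryoid bodies and so gives no support. Of 34 members, 24 were called between stages at 0 mM and 25 at 20 mM, beside 52.7% and 56.3% of all tested genes. With the _x_at and _s_at probe sets left out, 14 were called at each dose, since only 18 members were then tested. The shares of all genes were then 50.5% and 53.7%. Leaving out 1 array gave 21 to 24 calls at 0 mM and 21 to 28 at 20 mM, and 0 in the ethanol comparisons and their difference. With a replicate block the counts were 26 at each dose, beside 51.2% and 55.3% of all tested genes. They were 0 in the ethanol comparisons and their difference, and the letters had no pairing in the values. Ethanol calls in embryoid bodies, 0 as reported, were 14 after median centring, beside 30.1% of all tested genes. They were 3 under a trended, robust variance model (6.81% of all genes) and 2 with a filter at the 75th percentile (5.22%). With signals under 32 set to 32 there was 1, HKDC1 (1.09% of all genes). Median centring put the all-gene median at -0.27 for ethanol in embryoid bodies and at -0.12 for ethanol in undifferentiated cells. Directions turned for the mean of all probe sets (at 0 mM PKM 0.32 and P4HA2 -0.17; at 20 mM ENO1 0.23, PKM 0.13 and KDM3A 0.49, of which P4HA2, ENO1 and KDM3A turned through 1 set at background), for the probe set with the highest SD (PKM 1.11 and 0.83), without the _x_at and _s_at kinds (TPI1 0.12 and 0.017), for SLC2A3 at 20 mM after median centring (-0.12) and for LDHB at 20 mM after cyclic loess (0.10); the cause was otherwise not tested.

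Leaving out 1 array ended these calls at 0 mM, given with their adjusted p (limma): PDK1 without embryoid body replicates A (0.0856) or B (0.0774) or undifferentiated replicate A (0.0642), NDRG1 without undifferentiated replicate A (0.0692), P4HA2 without embryoid body replicate B (0.0642), SLC2A1 without it (0.0686), SLC2A3 without embryoid body replicate A (0.0836) or undifferentiated replicate B (0.0674), and PFKFB2 without embryoid body replicate A (0.0527). At 20 mM SLC2A1 was lost without embryoid body replicate A (0.0529) and PFKFB2 without embryoid body replicate B (0.107) or undifferentiated replicate B (0.0904). At 20 mM LDHB was also lost when any 1 of the 4 embryoid body arrays or 20 mM undifferentiated replicate A was left out (0.0572 to 0.153), and SLC2A3 when any 1 of the 4 embryoid body arrays or of both 20 mM undifferentiated arrays was (0.0689 to 0.187). The mean of all probe sets ended the calls of PFKL and KDM3A at 0 mM and of PFKP, TPI1 and PFKFB2 at both doses, without a change of sign. Across all 20 settings, 12 of the 33 genes were called in 1 direction at 0 mM and 14 at 20 mM under every one in which they were tested; at 0 mM PKM was also called under every setting, but in the opposite direction under 2.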

Other observations

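Undifferentiated replicates at 0 mM differed from each other across the whole set. Replicate A was above replicate B for 30 of 34 members, 88.2%, beside 46.8% of all tested genes, and the median log2 gap was 0.18 for members and 0.00 for all genes. For the hypoxia targets it was 9 of 10, with a median gap of 0.33, and for the other listed hypoxia genes 25 of 39, with a median gap of 0.10. The other listed glycolysis genes did not share this, with 10 of 22 and a median gap of -0.02. The pyruvate dehydrogenase genes had 6 of 10 and 0.07. Replicate A was the highest of the 4 undifferentiated arrays for 6 of 10 hypoxia targets and for 18 of 39 other hypoxia genes, beside 19.4% of all tested genes. It was so for 4 of 22 other glycolysis genes and 4 of 10 pyruvate dehydrogenase genes. In the other groups replicate A was above replicate B for 19 of 34 members (embryoid bodies at 20 mM), 15 of 34 (embryoid bodies at 0 mM) and 22 of 34 (undifferentiated cells at 20 mM). This bears on ethanol values in undifferentiated cells: BNIP3 was at -0.25 with both replicates, 0.02 without replicate A and -0.52 without replicate B, and P4HA1 at -0.23, -0.05 and -0.42. The pattern was noticed in these data and its cause was not tested.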
